A study of Mus musculus with 44 samples.

Results

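Foot shock was the one treatment that both the fear-conditioned and the fear-extinguished mice of this study had received and the tone-alone mice had not. The mice that had been shocked were therefore pooled and set against the tone-alone mice, and the genes that differed from tone alone in the same direction in both shocked groups were described. Of the 44 mice of the series, 38 entered the comparison. There were 22 shocked mice and 16 tone-alone mice, all from batches 1, 2 and 5, the batches that held all 3 groups. The batch is a number in the sample labels that is not explained further. The remaining 6 mice were extinction mice of batches 3 and 4, which held no tone-alone mice.

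All mice were Crh-TRAP mice, the first-generation offspring of a Crh-Cre line and a line with a Cre-dependent eGFP-L10a transgene, male and female, and 10 to 16 weeks old. TRAP is translating ribosome affinity purification, in which tagged ribosomes are pulled down and the mRNA bound to them is sequenced. The tone-alone group (TA, n = 16) heard 5 tones with the shock generator off. The fear conditioning group (FC, n = 12) had 5 pairings of a tone and a 0.65 mA foot shock, and tissue was taken 2 h later. The extinction group (EXT, n = 10) had the same pairings and on the next day heard 30 tones without shock in a context it had not seen before, so that its shocks lay a day back and its tissue followed the extinction session. The pool thus holds mice 2 h after shock and mice a day after it, and the EXT mice also differed from both other groups in having spent a night in the animal facility and in the extinction session itself. Cre can mark any cell that has made Crh up to the time of sampling, and the punches were centered over the amygdala and can hold tagged cells from next to the central nucleus.

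Crh encodes corticotropin releasing hormone, the peptide that starts the hormonal stress response and that is made in the central amygdala by GABAergic neurons of its lateral part. These neurons take part in fear and anxiety, and new protein synthesis after training is needed for lasting fear memory. A ribosome-bound mRNA pool reports which transcripts are engaged by ribosomes, and it depends on both how much of a transcript there is and how much of it is bound.

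The deposited values are log2 cpm (counts per 1000000 reads) of 8203 genes. In the 38 libraries, the effective library sizes solved back from these values were between 13054305 and 20440351. The effective size is not a plain count of reads: in FC replicate 2 it was 16372659 against 16920276 reads in the listed genes. Of 28 GABAergic and central amygdala genes listed, 25 were measured, Gad1 and Gad2 among them, and of 17 glutamatergic marker genes 6 were measured. All 26 listed astrocyte markers and 19 of 24 oligodendrocyte markers were measured too. These counts give the genes that passed the filter and do not measure enrichment of a cell type. Crh itself was at a median of 5.73 log2 cpm in TA, 5.35 in FC and 5.52 in EXT. Its pooled difference, shocked minus TA, was −0.32 ± 0.17 (SE) on the log2 scale with an adjusted p of 0.259 in limma. EXT replicate 1 stood apart: its median correlation with the other libraries of its batch was 0.887, the lowest of the 38, and it had the lowest Crh value of the EXT group. Without this mouse the difference in Crh was −0.23.

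No gene passed a false discovery rate (FDR) of 0.05 when shocked mice were compared with TA mice, with batch and sex in the limma model. The smallest adjusted p was 0.0532, and 15 genes passed when voom weights were used. At an unadjusted p under 0.05, 1774 genes differed, which is 21.6% of all genes tested, 857 of them higher in shocked mice (10.4%) and 917 lower (11.2%). At an FDR of 0.1, 547 genes passed (6.67%). The median difference over all genes was 0.00 on the log2 scale. When FC mice alone were compared with TA, 0 genes passed the FDR of 0.05 and 1093 reached an unadjusted p under 0.05 (13.3%), 555 of them higher (6.77%) and 538 lower (6.56%). In EXT vs. TA, 33 genes passed the FDR (0.402%), 14 higher and 19 lower, and 1797 reached that unadjusted p (21.9%), 873 of them higher (10.6%) and 924 lower (11.3%). The tests of sex by shock and of batch by shock gave 0 FDR-significant genes each, and an unadjusted p under 0.05 was reached by 825 genes (10.1%) for sex and by 633 (7.72%) for batch. The pulled-down RNA comes from many cells together, so that a lower share of a cell type and less RNA per cell cannot be told apart.

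A gene was called common when FC and EXT each differed from TA with an unadjusted p under 0.05 and both differences had the same sign. There were 495 such genes, 6.03% of all genes, of which 247 were higher (3.01%) and 248 lower (3.02%) than in TA. No gene had an unadjusted p under 0.05 in opposite directions. Both comparisons subtract the same 16 TA mice, so the number common is a description of these mice and was not tested. Without EXT replicate 1 there were 496 common genes and 1681 genes at an unadjusted p under 0.05 in the pooled comparison, and without FC replicate 10 there were 320 common genes. The common genes differed little: the median pooled difference was 0.25 for the higher genes (a level 19.3% above TA) and −0.29 for the lower ones. The largest differences were 0.61 for Ddit4l, an inhibitor of mTOR signalling, 0.58 for Gas5, a noncoding RNA that hosts small nucleolar RNAs and carries a decoy for the glucocorticoid receptor, 0.58 for 2900052N01Rik, −0.57 for Usp19 and −0.54 for Upf1, the helicase of nonsense-mediated decay. EXT minus FC had an unadjusted p under 0.05 in 2 of the 247 higher and 4 of the 248 lower genes, against 7.57% of all genes (3.72% higher and 3.85% lower in EXT). The shocked minus TA difference had 1 sign in all of the 3 batches for 236 of the 247 higher and 247 of the 248 lower genes, against 40.7% of all genes. Such likeness between groups and batches is in part what the choice of these genes brings with it.

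Of the common genes, the 12 higher and the 12 lower ones with the smallest pooled p were examined one by one. To show what lies in front of these genes, the 250 bases before the annotated start were read from RefSeq (GRCm38.p6). They were searched on both strands for TGACGT, a part of the cAMP response element (CRE) TGACGTCA that is called the CRE core here. The other motif was TGANTCA (bound by AP-1, the Fos and Jun dimer). The shorter CRE part TGACG was not searched for, so windows without the CRE core can still hold it. Windows were found for 16 of the 24 genes, and those with a CRE core or an AP-1 motif were Gpatch2l (chr12:86241608-86241857, plus strand), Ddit3 (chr10:127290543-127290792, plus strand) and Med28 (chr5:45519979-45520228, plus strand). They are shown with the motif in capitals, because CREB and AP-1 are the transcription factors most often tied to learning.
Gpatch2l: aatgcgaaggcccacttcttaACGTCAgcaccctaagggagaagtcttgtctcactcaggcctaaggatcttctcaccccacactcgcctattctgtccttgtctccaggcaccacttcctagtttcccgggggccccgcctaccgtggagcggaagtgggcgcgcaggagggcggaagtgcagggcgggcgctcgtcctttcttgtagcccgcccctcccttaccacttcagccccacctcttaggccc
Ddit3: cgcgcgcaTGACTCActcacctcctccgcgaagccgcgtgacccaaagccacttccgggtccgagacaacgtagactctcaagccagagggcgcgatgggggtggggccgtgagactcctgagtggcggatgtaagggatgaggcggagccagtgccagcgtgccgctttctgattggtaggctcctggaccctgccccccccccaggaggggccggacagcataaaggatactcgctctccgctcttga
Med28: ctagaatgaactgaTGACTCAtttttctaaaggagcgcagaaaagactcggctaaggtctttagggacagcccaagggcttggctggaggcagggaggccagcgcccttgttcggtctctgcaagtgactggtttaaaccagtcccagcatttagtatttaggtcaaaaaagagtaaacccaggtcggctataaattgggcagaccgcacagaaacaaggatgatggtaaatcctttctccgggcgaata
The CRE core of Gpatch2l reads on the opposite strand. Such matches are a description of the letters and not of a bound site. Of the windows of all genes, 10.6% held the CRE core and 3.84% the AP-1 motif.

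Plekha3 encodes a lipid-binding protein of the trans-Golgi network and had the smallest p among the higher genes. Its values ran from 5.41 to 6.89 log2 cpm in TA (median 6.59), from 6.07 to 6.98 in FC (median 6.80) and from 6.30 to 7.91 in EXT (median 6.86). Over all batches the groups overlapped, but every one of the 22 shocked mice was above the TA median of its own batch. The difference, shocked minus TA, was 0.39 ± 0.08 (SE, adjusted p = 0.0612, limma), and by batch it was 0.54, 0.38 and 0.30 in batches 1, 2 and 5.

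Among the other higher genes, H2afv, a histone variant of the H2A.Z type, was between 6.79 and 7.60 log2 cpm in TA, between 7.04 and 7.98 in FC and between 7.30 and 7.69 in EXT. Of the 22 shocked mice, 21 lay above the TA median of their batch, and the difference was 0.31 ± 0.07 (SE). Med28, a subunit of the Mediator complex that joins transcription factors to RNA polymerase II, differed by 0.27 ± 0.07 and Sarnp, which takes part in mRNA export, by 0.24 ± 0.06. C1d, a cofactor of the nuclear exosome, was at a median of 7.84 in TA, 8.09 in FC and 8.07 in EXT, and its difference from TA came to 0.26 in each of the shocked groups.

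Ifrd1, a coregulator of transcription, had medians of 5.51 in TA, 5.73 in FC and 5.86 in EXT and a difference of 0.40 ± 0.09. Ddit3, which encodes CHOP, the transcription factor of the late unfolded protein response, had medians of 5.31, 5.34 and 5.60 and a difference of 0.34 ± 0.08. These medians mix batches of unlike level, and with batch and sex in the model the difference was 0.37 in FC and 0.30 in EXT. For Ddit3 the batches differed in size, with 0.66 in batch 1, 0.31 in batch 2 and 0.18 in batch 5, and 19 of 22 shocked mice were above the TA median of their batch. Mrps18c, a protein of the small mitochondrial ribosomal subunit, was higher by 0.29 ± 0.06, with 21 of 22 shocked mice above that median. Fopnl, a centrosomal protein, and Bbip1, a subunit of the BBSome that moves receptors in cilia, differed by 0.35 and 0.26. Commd6 differed by 0.32. Sp3os differed by 0.35, but it lies antisense to Sp3, and because the kit and counting are not stated to keep strand, its reads cannot be told from those of an overlapping transcript. All 12 of these genes had adjusted p-values of 0.0612.

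**Figure D1:**
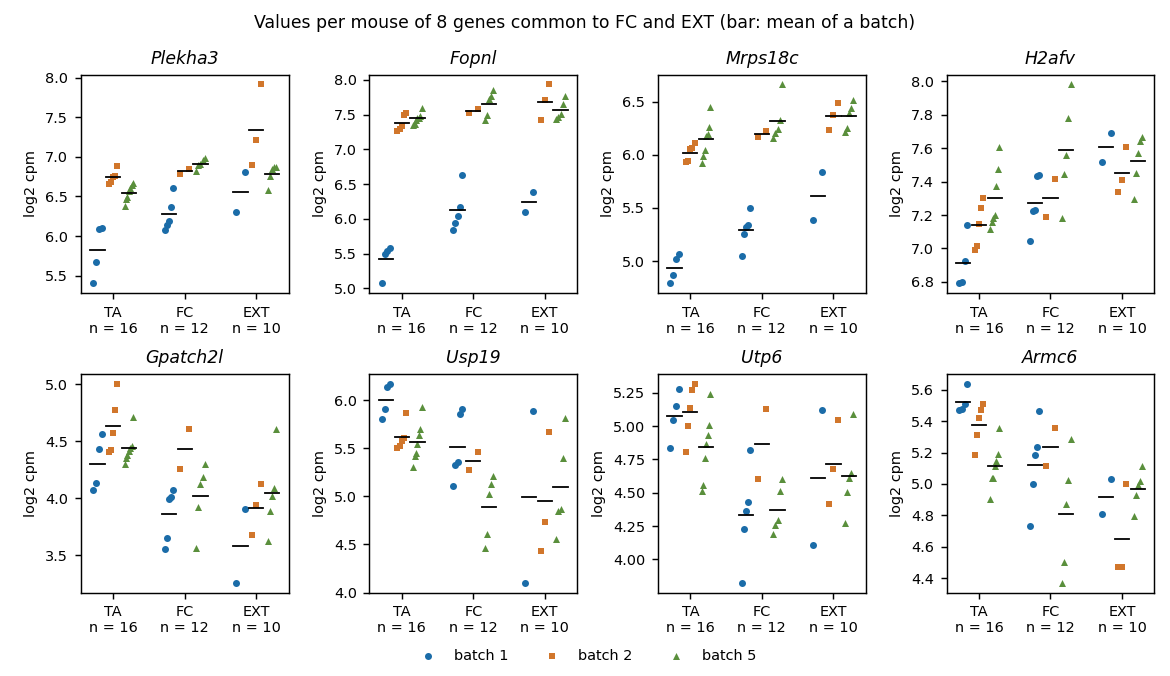
The log2 cpm of each mouse is plotted for 4 higher (upper row) and 4 lower genes (lower row) in TA, FC and EXT, with batches 1, 2 and 5 as circles, squares and triangles and a bar at each batch mean. Batches set the level of Fopnl and Mrps18c, and inside each batch the means of FC and EXT lie above those of TA in the upper row and below them in the lower row.

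Among the lower genes, Gpatch2l had the smallest p of all genes in the comparison. It lay between 4.07 and 5.00 log2 cpm in TA (median 4.43), between 3.56 and 4.61 in FC (median 4.04) and between 3.26 and 4.61 in EXT (median 3.92). The ranges overlapped, and 20 of 22 shocked mice were below the TA median of their batch. The difference was −0.47 ± 0.09 (SE, adjusted p = 0.0532), which puts shocked mice at 0.723 times the TA level, and the batches gave −0.52, −0.51 and −0.41. In EXT vs. TA, where Gpatch2l was FDR-significant (adjusted p = 0.0273), it fell by 0.56.

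Usp19, Usp33 and Fbxo38 have roles in removing or attaching ubiquitin. Usp19, a deubiquitinase anchored in the endoplasmic reticulum, ran from 5.31 to 6.16 in TA, from 4.46 to 5.91 in FC and from 4.10 to 5.89 in EXT. With −0.57 ± 0.13 (SE) it had the largest difference among the lower common genes, and shocked mice were spread more widely than TA mice. Usp33, another deubiquitinase, differed by −0.41 ± 0.09, but by −0.90 in batch 1 against −0.20 in batch 2 and −0.21 in batch 5. Fbxo38, the substrate-binding part of a ubiquitin ligase, differed by −0.32 ± 0.08.

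Trappc11, a part of the TRAPP complex of transport from the endoplasmic reticulum to the Golgi, was the gene of the 24 for which every shocked mouse was below the TA median of its batch. Its values were 4.75 to 5.93 in TA (median 5.21), 4.06 to 5.56 in FC (median 4.83) and 4.30 to 5.46 in EXT (median 4.81), and the difference was −0.47 ± 0.11. Dlg3, which encodes the scaffold SAP102 of NMDA receptors, had medians of 6.79, 6.61 and 6.20 and differed by −0.51 ± 0.12. Arhgap39 and Fam65b differed by −0.35 and −0.46.

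Adar, Utp6, Aars and Armc6 were also among the lower genes. Adar, the enzyme that edits adenosine to inosine in double-stranded RNA, had medians of 5.88 in TA, 5.52 in FC and 5.47 in EXT, with 21 of 22 shocked mice below the TA median of their batch and a difference of −0.49 ± 0.12. Utp6, which acts in the processing of the small-subunit rRNA, differed by −0.43 ± 0.10 and Aars, the alanyl-tRNA synthetase, by −0.42 ± 0.10. Armc6 differed by −0.36 ± 0.08, with 21 of 22 shocked mice below that median. The adjusted p of the lower genes other than Gpatch2l was 0.0612.

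**Figure D2:**
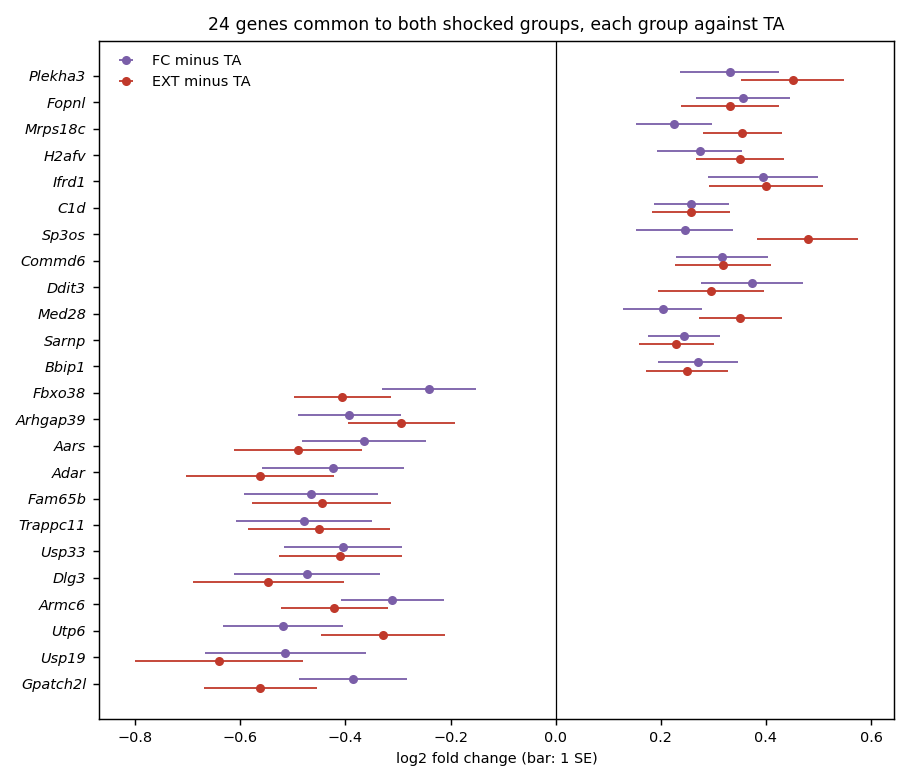
The log2 fold change against TA is given for FC and EXT separately for the 12 higher and the 12 lower genes, with bars of 1 SE. All 24 genes lie on the same side of 0 in both groups, which the rule for choosing them requires, and FC and EXT share the TA mice.

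The sexes were compared for the genes with the smallest p. In the 10 shocked and 6 TA females, Gpatch2l differed by −0.57 and Usp19 by −0.63. In the 12 shocked and 10 TA males, these differences were −0.41 and −0.54. For Plekha3 they were 0.49 in females and 0.32 in males. Over all genes, 1702 reached an unadjusted p under 0.05 in females alone (974 higher and 728 lower) and 766 in males alone (340 and 426), with 531 and 110 common genes. Most mice of batch 1 were female and most of the other batches male. Batch 1 held 0 male EXT mice and batch 2 held 0 female FC mice. A difference between the sexes thus cannot be told from a difference between batches. The interaction of sex and shock had unadjusted p-values of 0.478 for Gpatch2l, 0.848 for Usp19 and 0.389 for Plekha3.

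Gene groups were then described by how many members were higher or lower at an unadjusted p under 0.05 in shocked mice, to be read against 10.4% and 11.2% of all genes. No member of the 32 lists passed the FDR of 0.05 in the pooled comparison.

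Ribosomal protein genes had the largest share of differing members among the 32 lists. Of 80 cytosolic ribosomal protein genes, 56 were higher and 0 lower (70%), with a median difference of 0.20 against 0.00 for all genes. In FC vs. TA, 20 were higher and 0 lower, in EXT vs. TA 58 and 0, and 19 were common. The batch medians were 0.21, 0.28 and 0.20. Rpl14, a protein of the large subunit, ran from 6.58 to 8.42 log2 cpm in TA (median 8.14), from 7.03 to 9.16 in FC (median 8.17) and from 7.23 to 9.28 in EXT (median 8.38). The groups overlapped, with 21 of 22 shocked mice above the TA median of their batch and a difference of 0.32 ± 0.08. Rpl10a, whose product is the tagged protein of the TRAP transgene, was one of 3 members with a negative difference (−0.18 ± 0.11), and reads of the gene and of the transgene cannot be told apart. Ribosomal protein genes have many near-identical processed copies in the genome, so their counts are uncertain where the counting split reads between them. Without EXT replicate 1, 48 were higher, with log2 effective library size as a covariate 8 were (median 0.11), and without a batch term 1 was (median 0.17). In females alone 53 were higher (median 0.32) and in males alone 10 (median 0.13), while the interaction of sex and shock had an unadjusted p under 0.05 for 5 of the 80 genes and passed the FDR for 0. As described for all genes, most mice of batch 1 were female and most of the other batches male.

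Mitochondrial genes made in the nucleus leaned the same way in the pool and in EXT vs. TA, with fewer higher members in FC vs. TA. Of 76 mitochondrial ribosomal protein genes, 17 were higher and 1 lower (median 0.08). Of 77 nuclear-encoded genes of oxidative phosphorylation, 21 were higher and 5 lower (median 0.13). In FC vs. TA, 5 of the mitochondrial ribosomal protein genes were higher and 0 lower, and in EXT vs. TA 21 and 1. For oxidative phosphorylation, 5 were higher and 1 lower in FC, and 38 and 5 in EXT. Of all genes, 6.77% were higher in FC and 10.6% in EXT, so that in FC both lists were close to the share of all genes. Ndufb9, a subunit of complex I, was higher by 0.29 ± 0.08, while Atp5a1, the alpha subunit of the ATP synthase, was lower by −0.30 ± 0.08, and both were common. The 8 measured transcripts of the mitochondrial genome itself had 0 members with an unadjusted p under 0.05, and their batch medians were −0.15, 1.65 and 0.26. mt-Nd2 ran from 2.98 to 8.14 log2 cpm in TA and from 3.89 to 11.30 in EXT, where EXT replicate 1 of batch 2 held the highest value. Without this mouse the pooled median of these transcripts went from 0.48 to 0.14 and the difference in mt-Nd2 from 0.54 to 0.18.

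Among chaperone genes, the members past the threshold were lower. Of 46 heat shock proteins and chaperonins, 0 were higher and 16 lower (34.8%), with a median of −0.14. In FC vs. TA 6 were lower and in EXT vs. TA 24. Hspa4, an Hsp110 type cochaperone, had medians of 5.94 in TA, 5.72 in FC and 5.57 in EXT, with 17 of 22 shocked mice below the TA median of their batch. Its difference was −0.41 ± 0.11. Hsph1, of the same family, differed by −0.26 ± 0.07 and was FDR-significant in EXT vs. TA, where it fell by 0.37.

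Other groups with more lower members than all genes act in protein turnover, tRNA charging, splicing and transport. Among 37 ubiquitin-specific peptidases, 1 was higher and 13 lower (35.1%), with a median that went to −0.01 when the slope on transcript length described further on was a covariate. Usp22, a subunit of the SAGA coactivator, differed by −0.43 ± 0.13. Among 31 aminoacyl-tRNA synthetases, 1 was higher and 11 lower, Iars with −0.39 ± 0.11. The splicing factors and hnRNPs had 1 higher and 19 lower of 69, Prpf6 with −0.47 ± 0.13. Kinesins, dyneins and tubulins had 3 higher and 16 lower of 52, and Dctn1, the large subunit of dynactin, differed by −0.31 ± 0.09. Synaptic vesicle and SNARE genes had 1 higher and 13 lower of 43, among them Snap91, which assembles clathrin coats, with −0.38 ± 0.09, and Nsf, the ATPase that takes SNARE complexes apart, with −0.36 ± 0.10. Medians of these 5 groups were between −0.14 and −0.08, and that of the synaptic vesicle and SNARE genes went to −0.02 with the length slope as a covariate. Members lower in FC and in EXT vs. TA were 5 and 13 for the peptidases, 3 and 14 for the synthetases and 10 and 17 for splicing. They were 4 and 19 for kinesins, dyneins and tubulins and 4 and 14 for the synaptic genes. In each list, no more than 2 were higher in either comparison. Of all genes, 6.56% were lower in FC and 11.3% in EXT.

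**Figure D3:**
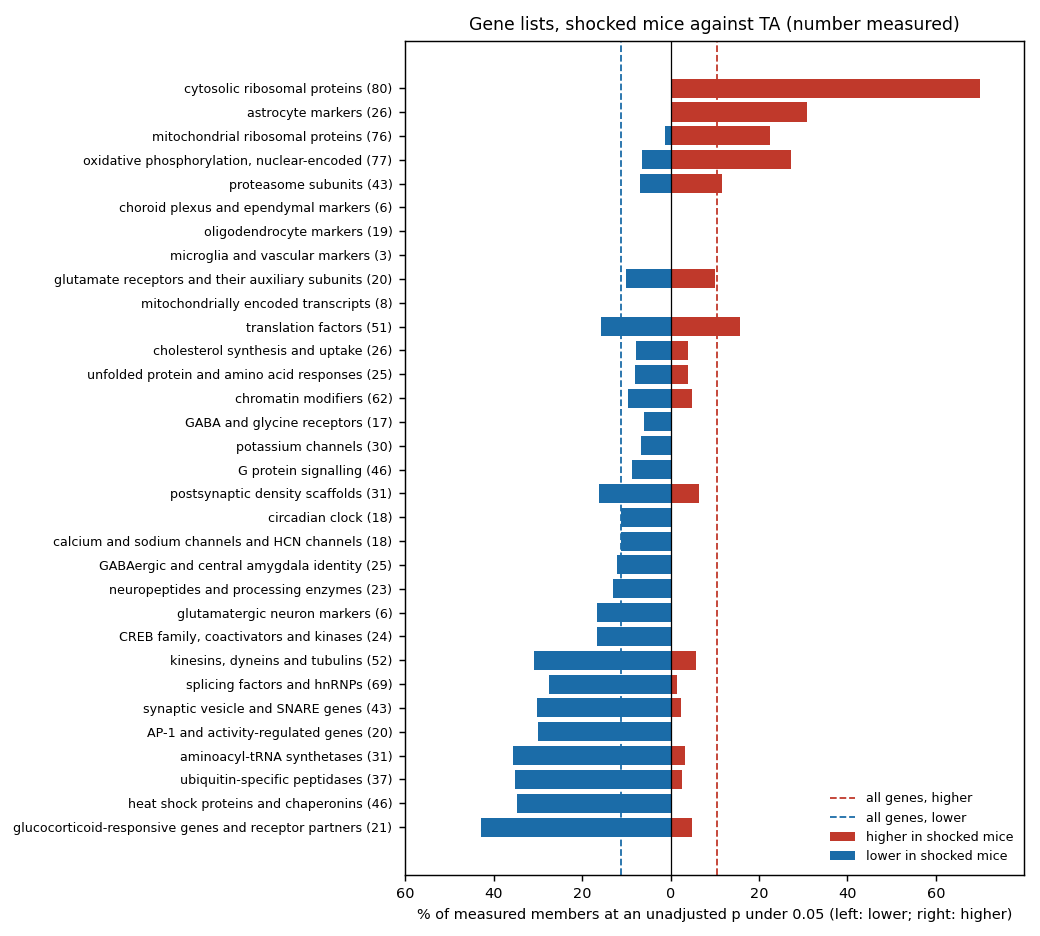
For each of 32 gene lists, the bar to the right gives the percent of measured members that were higher and the bar to the left the percent lower at an unadjusted p under 0.05 in shocked mice, with dashed lines at 10.4% and 11.2% for all genes. Cytosolic ribosomal proteins reach 70% on the right, and 6 lists go beyond 30% on the left.

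Of 20 AP-1 and activity-regulated genes, 0 were higher and 6 lower, and 0 were common. In FC vs. TA 2 were lower and in EXT vs. TA 5, with 0 higher in either. Fos, an immediate early gene, ran from 3.76 to 5.50 log2 cpm in TA (median 4.72), from 3.67 to 5.14 in FC (median 4.67) and from 3.65 to 4.33 in EXT (median 3.89). It fell in EXT vs. TA by 0.89 (adjusted p = 0.00342), its FC value was −0.14 (unadjusted p = 0.333), and the pooled difference was −0.49 ± 0.15. EXT minus FC had an unadjusted p of 2.54e-05 and an adjusted p of 0.208. Dusp1, a phosphatase that ends MAP kinase signalling, was −0.14 in FC and fell by 0.48 in EXT, and Junb was −0.15 in FC and fell by 0.52 in EXT, with adjusted p-values for EXT minus FC of 0.551 and 0.576. The batches of the pooled Dusp1 difference were 0.04, −0.58 and −0.32.

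Of 21 glucocorticoid-responsive genes and receptor partners, 1 was higher and 9 lower, and the lower ones included the receptor chaperones Fkbp4, Stip1 and Hsp90ab1. In FC vs. TA 2 were higher and 2 lower, and in EXT vs. TA 0 and 11. The 9 lower genes of the pool also included Hspa4, which is counted among the chaperone genes too, and Usp22. The study linked Usp22 to glucocorticoid receptor signalling from its own comparison of mice of this series. The count of this list is thus not independent of these data. Fkbp5, a cochaperone of the glucocorticoid receptor that the hormone induces, had medians of 6.06, 6.10 and 5.70 and a difference of −0.20 ± 0.09, with −0.18 in FC and −0.23 in EXT. Sgk1 differed by −0.24 ± 0.20, and by −0.16, 0.38 and −0.63 in the batches. Of 24 genes of the CREB family, its coactivators and kinases, 0 were higher and 4 lower. Creb1 differed by −0.10 ± 0.08 and Prkar1b, a regulatory subunit of protein kinase A, by −0.30 ± 0.10.

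The remaining lists were described in the same way. Among 25 GABAergic and central amygdala genes, 0 were higher and 3 lower (12%, near the 11.2% of all genes). The sign was positive for 9 of them and negative for 16, with a median of −0.13 in FC and 0.02 in EXT. The 2 members with the smallest p were Gad1, an enzyme of GABA synthesis, at −0.30 ± 0.09 and Abat, which breaks GABA down, at −0.28 ± 0.08. Abat was common and Gad1 was not. Among 23 neuropeptides and processing enzymes, 0 were higher and 3 lower. Vgf, a granin-like precursor that neuronal activity induces, differed by −0.44 ± 0.13 and was common, while Pdyn, the precursor of dynorphin, differed by −0.69 in FC and −0.21 in EXT. Glutamate receptors and their auxiliary subunits had 2 higher and 2 lower of 20. Cacng2, also called stargazin, an auxiliary subunit of AMPA receptors, differed by 0.41 ± 0.14 with 0.41 in both shocked groups, and Grin1, the obligatory NMDA receptor subunit, by −0.42 ± 0.15. Postsynaptic density scaffolds had 2 higher and 5 lower of 31, and Pick1 differed by −0.28 ± 0.07. Potassium channels had 0 and 2 of 30, calcium, sodium and HCN channels 0 and 2 of 18, and GABA and glycine receptors 0 and 1 of 17. The proteasome had 5 higher and 3 lower of 43, translation factors 8 and 8 of 51, chromatin modifiers 3 and 6 of 62, unfolded protein and amino acid responses 1 and 2 of 25, cholesterol genes 1 and 2 of 26, circadian genes 0 and 2 of 18, and G protein signalling 0 and 4 of 46.

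**Figure D4:**
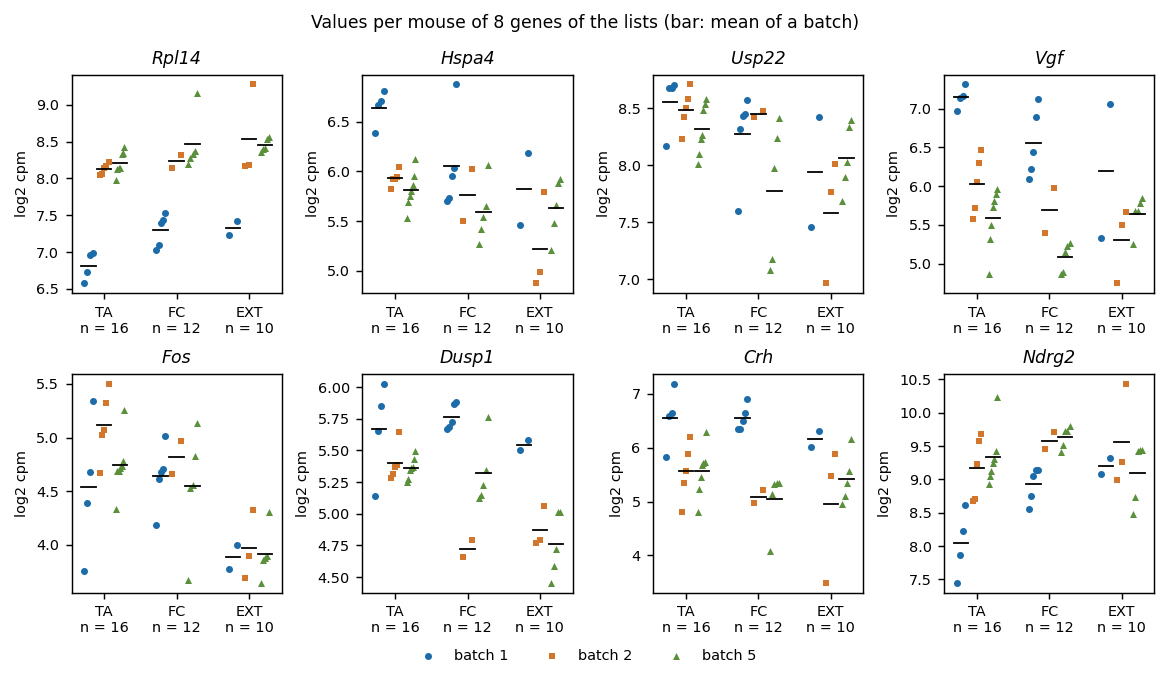
The log2 cpm of each mouse is plotted for 8 genes of the lists by group, with batches 1, 2 and 5 as circles, squares and triangles and a bar at each batch mean. Fos in EXT stays at or below 4.33, while TA reaches 5.50 and FC 5.14, and the lowest Crh value is that of an EXT mouse of batch 2.

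Markers of other cell types were examined beside these groups, because the pull-down can carry RNA of untagged cells. All 26 measured astrocyte markers had a positive pooled difference, 8 of them with an unadjusted p under 0.05, and the median was 0.25. The median was 0.43 in FC, with 12 of 26 higher, and 0.08 in EXT, with 0 higher. The summed level of the markers was between 3760 and 10068 cpm in TA, between 4693 and 9878 in FC and between 4363 and 10759 in EXT. Ndrg2, one of these markers, differed by 0.39 ± 0.15, by 0.96 in batch 1 and by 0.04 in batch 5. Of 19 oligodendrocyte markers, 6 glutamatergic, 3 microglial and vascular and 6 choroid plexus and ependymal markers, 1 (Nptx1, a glutamatergic marker) had an unadjusted p under 0.05. The choroid plexus markers Enpp2 and Clic6 ran over wide ranges, Enpp2 from 5.87 to 12.84 log2 cpm in TA, and the batch medians of these markers were −0.37, 0.96 and −1.45. With the choroid plexus score as a covariate, 606 genes were common and 4 passed the FDR. The part of the astrocyte RNA in the results was not tested.

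Transcript length and library size also went with the difference between shocked and TA mice. Genes were put in 5 bins of about equal size by the length of their longest transcript. In the bin of the shortest transcripts (57 to 1942 bases), 24.5% were higher and 1.71% lower in shocked mice, and in the bin of 3907 to 5283 bases 5.4% were higher and 18.3% lower. The median transcript length was 1822 bases for the common higher and 4128 bases for the common lower genes. The shortest bin held 129 of the 247 higher common genes and 2 of the 248 lower ones, and its median difference was 0.15, 0.07 and 0.08 in batches 1, 2 and 5. Of the 1472 genes in it that encode no ribosomal protein and no subunit of oxidative phosphorylation, 22.4% were higher. Of the mitochondrial ribosomal protein genes in this bin 23.7% were higher, and of the oxidative phosphorylation genes 27.1%, against 24.5% of the whole bin. Of the 15 cytosolic ribosomal protein genes with longer transcripts, 9 were higher and 0 lower, with a median of 0.20 against 0.21 for the 65 short ones. The longest annotated transcript need not be the one bound by ribosomes. These 15 genes therefore cannot separate transcript length from membership in the ribosomal protein list.

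In each mouse, the slope of log2 cpm on log2 transcript length was computed. Its mean in TA and in shocked mice was −0.14 and −0.22 in batch 1, −0.40 and −0.44 in batch 2 and −0.44 and −0.49 in batch 5. With this slope as a covariate, 945 genes had an unadjusted p under 0.05 and 215 were common, 319 of the 495 common genes kept an unadjusted p under 0.05 in the pooled comparison, and 21 of 80 cytosolic ribosomal protein genes were higher. The median of the ubiquitin-specific peptidases was then −0.01 and that of the heat shock proteins and chaperonins −0.15.

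The effective library size was lower in shocked mice by 0.13 on the log2 scale (−0.13, two-sided permutation test inside batches, p = 0.00203). It ran from 14649837 to 20440351 in TA, from 13431032 to 19257786 in FC and from 13054305 to 16787593 in EXT. Mean log2 sizes in TA, FC and EXT were 24.16, 24.15 and 23.97 in batch 1 and 24.09, 23.99 and 23.87 in batch 2. In batch 5 they were 24.02, 23.92 and 23.83. EXT thus had the lowest mean in each batch. With the log2 library size as a covariate, 920 genes had an unadjusted p under 0.05, 218 were common, and 397 of the 495 common genes kept an unadjusted p under 0.05. The part of transcript length and library size in the differences was not tested beyond these fits.

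**Figure D5:**
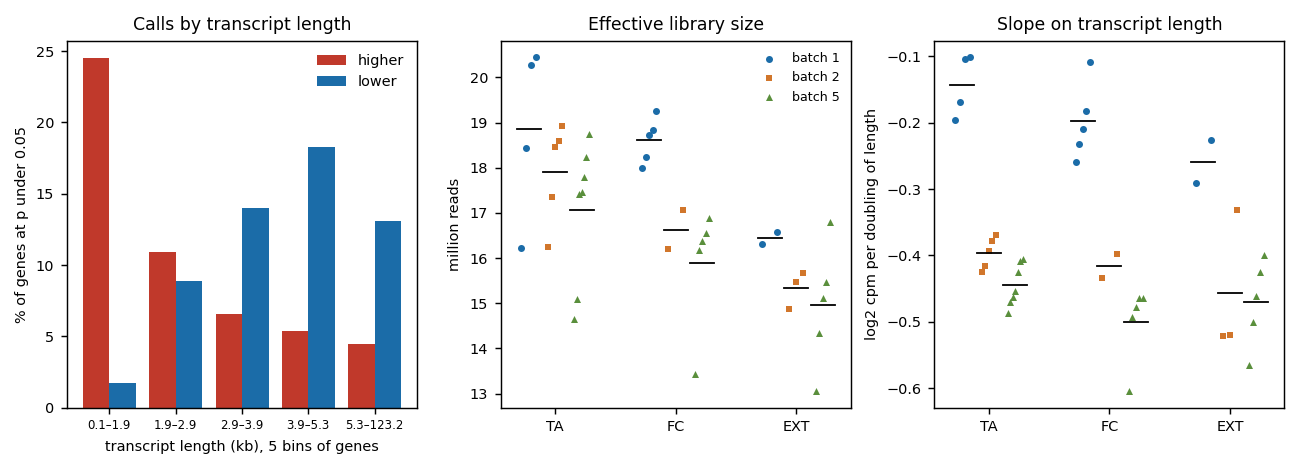
The left panel gives the percent of genes higher and lower in shocked mice at an unadjusted p under 0.05 in 5 bins of transcript length, from 24.5% higher in the shortest to 4.47% in the longest. The other panels give the effective library size (axis in units of 1000000) and the slope on transcript length for each mouse by group, with batches as symbols and batch means as bars.

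Of the 24 genes described one by one, Plekha3, H2afv, Sp3os, Ddit3, Gpatch2l, Usp19, Utp6, Armc6, Dlg3, Usp33, Trappc11, Fam65b, Adar, Aars and Fbxo38 kept an unadjusted p under 0.05 in every alternative fit that held them, with library size or the length slope as a covariate among them. Fopnl, Mrps18c, Ifrd1, C1d, Commd6, Med28, Sarnp, Bbip1 and Arhgap39 lost it in 1 to 3 of these fits. The 24 genes were chosen for their small pooled p, and the alternative fits use the same mice or a part of them. Keeping a p under 0.05 is therefore in part what the choice brings with it.

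The shares of windows with each motif were then counted, without a test. RefSeq windows were found for 6393 of the 8203 genes, with 8472 windows in all, 230 of common higher and 250 of common lower genes. The CRE core TGACGT was in 10.6% of all windows, 12.6% of those of higher and 11.2% of those of lower genes, and the full element TGACGTCA, which contains it, in 2.87%, 3.91% and 2.8%. The AP-1 motif TGANTCA was in 3.84%, 2.17% and 2.4%, and the CCAAT box CCAAT was in 35%, 37.4% and 37.2%.

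Among the genes with an unadjusted p under 0.05 in the pool, those with the smallest p for EXT minus FC were Fos, U2af1l4, Ppp1r1a and Tenm1. U2af1l4, a splicing factor of the U2AF family, was 0.01 in FC and rose by 0.25 in EXT vs. TA, where it was FDR-significant. Ppp1r1a, an inhibitor of protein phosphatase 1, was 0.03 in FC and rose by 0.51 in EXT. Tenm1, a teneurin of synaptic adhesion, was −0.57 in FC and −0.09 in EXT. EXT minus FC had adjusted p-values of 0.208 or more for all genes, so that none of these differences between the shocked groups passed the FDR.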

How the data were processed

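TRAP-seq was performed on punches of single mice that were centered over the amygdala. Per the labels and the study's methods, the authors trimmed reads with Trimmomatic (version 0.36), aligned them with STAR to GRCm38, and used SAMtools, edgeR and limma. The counter and its strand setting are not given in the sources used here. The deposited table holds log2 cpm (counts per 1000000 reads) of 8203 genes in 44 mice. Its values were solved back to whole reads plus an offset of 0.5, which came out whole within 0.05 reads for 311714 of 311714 values of the 38 mice used, with a median of 893.5 reads per gene in the median mouse. The authors' filter on low genes was kept.

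Differences were fitted with limma (version 3.58.1, R 4.3.3) on the log2 values, with batch as a factor, sex and shock (33 residual degrees of freedom), two-sided, and p-values were adjusted by Benjamini-Hochberg over 8203 genes. FC vs. TA and EXT vs. TA came from a fit of 3 groups. The library size test used 100000 permutations. Of the 8203 symbols, 8023 were matched to GENCODE mouse release 21 by symbol and 143 by synonym, and transcript length is that of the longest transcript. Genes named are the 12 common genes per direction with the smallest pooled p, 2 members of each of 32 lists, 4 genes with the smallest p for EXT minus FC, and Crh, Fos, Junb, Sgk1, Id3, Fkbp5 and Creb1. Ddit4l, Gas5, 2900052N01Rik and Upf1 were added for their size after their values were seen, as were other list members named without this rule. A few genes that the rule chose are not reported here. The members and lists were chosen with earlier results of these data known. Replicate numbers follow the order of the samples, and each mouse is one sample. Alternatives changed the batch and sex terms, the mice, covariates, the filter, scaling and weights. The model was tested on simulated data.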

Additional observations from a re-analysis of the deposited data

Results flagged for a closer look

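For each of the 89 named genes, the highest and lowest of the 10 EXT mice were compared with the gap to the nearest other mouse by Dixon's criterion (0.466 for 10 samples). The larger TA and FC groups were not examined. Chance marks about 1 in 20 groups, and 10 values were marked here. The EXT mice come from 3 batches that differ in level, and 9 of the 10 values belong to EXT replicate 1 of batch 2 and EXT replicate 7 of batch 1.

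EXT replicate 7 was highest for Fbxo38 (5.595 log2 cpm, nearest mouse 5.187), Vgf (7.055, nearest 5.847), Csnk1d (7.75, nearest 7.167), Junb (7.007, nearest 6.137) and Fkbp5 (6.733, nearest 5.926). EXT replicate 1 was lowest for Pdyn (6.657, nearest 7.865), Tubb3 (7.267, nearest 7.932) and Crh (3.494, nearest 4.952) and highest for the astrocyte marker Ndrg2 (10.426, nearest 9.441). EXT replicate 6 of batch 1 was highest for Kmt2e (8.248, nearest 7.475), a chromatin regulator.

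Without EXT replicate 7 the pooled differences were −0.32 for Fbxo38, −0.46 for Vgf, −0.37 for Csnk1d, −0.34 for Junb and −0.22 for Fkbp5. Without EXT replicate 1 they were −0.40 for Pdyn, whose unadjusted p went from 0.0293 to 0.0546, −0.22 for Tubb3, −0.23 for Crh and 0.34 for Ndrg2.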

How the results depend on the processing

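No gene passed the FDR of 0.05 in the reported fit, and with adjusted p-values just above it, 1 gene passed with no sex term, 1 with FC and EXT weighted equally, 4 with the choroid plexus score as a covariate, 15 with voom weights, 44 with array weights and 128 when only genes with a mean log2 cpm of at least 5 were tested (fewer genes tested). Leaving out 1 mouse gave between 0 and 214 genes: 214 without FC replicate 8, 169 without EXT replicate 14, 151 without TA replicate 13, 132 without FC replicate 7, 118 without EXT replicate 4, 99 without FC replicate 1, 29 without FC replicate 9, 2 without FC replicate 5, and 1 each without TA replicate 1, FC replicate 6 and FC replicate 11.

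The 1774 genes at an unadjusted p under 0.05 (857 higher) became 1140 (399 higher) with batch as a number, 969 (304) with no batch term, 920 (451, with 469 lower) with library size, 945 (483, with 462 lower) with the length slope, which was chosen after seeing the data, and 766 (340, with 426 lower) in males alone. Without the mice of batch 1, 545 were higher. The 495 common genes became 225 (58 higher) with batch as a number, 164 (36 and 128 lower) with no batch term, 227 (113 and 114) without batch 1, 228 (146 and 82) without batch 5, 218 (100 and 118) with library size, 215 (107 and 108) with the length slope and 99 (53 and 46) when both comparisons had to reach an unadjusted p of 0.01. With array weights 158 were lower. Leaving out 1 mouse gave 320 to 597 common genes, of which 320 (154 lower) came without FC replicate 10, and 154 to 337 lower ones. The genes with a sex by shock interaction at an unadjusted p under 0.05 went from 825 to 517 with batch as a number. The causes were not tested.

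Of 5055 values of named genes under the alternatives, 9 changed sign. These were Clic6 (0.0181), Enpp2 (0.2486) and Sgk1 (0.121) without batch 5, Clic6 (0.2348), Enpp2 (0.5318) and Sgk1 (0.0928) in females alone, Glra2 (0.0148) and Opalin (−0.0287) in males alone, and Camk2a (0.0472) with the length slope. Of 1823 list medians, 2 moved by more than the spread between mice. No paired analysis was possible because the labels give each mouse an animal number of its own and no replicate number shared between groups.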

Other observations

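Scd1, Hmgcs1 and Pde1c belong to the cholesterol and G protein lists, and their values have not been given so far. Scd1, the desaturase that makes monounsaturated fatty acids, had medians of 4.35 log2 cpm in TA, 4.92 in FC and 4.49 in EXT and a pooled difference of 0.50 ± 0.18 (SE). Hmgcs1, an early enzyme of cholesterol synthesis, had medians of 7.38, 7.36 and 6.99 and a difference of −0.37 ± 0.11. Pde1c, a calmodulin-dependent phosphodiesterase, ran from 3.14 to 6.11 in TA and from 2.85 to 5.35 in FC, with −0.96 in FC and −0.26 in EXT. None of these passed the FDR of 0.05 in limma.

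Id3, a repressor of helix-loop-helix transcription factors, had medians of 5.32 in TA, 6.02 in FC and 6.05 in EXT, and 19 of 22 shocked mice were above the TA median of their batch. Its difference was 0.51 ± 0.21 with an adjusted p of 0.16, and it was 1.17 in batch 1 against 0.23 and 0.26 in batches 2 and 5. The medians mix batches of unlike level. With batch and sex in the model, Id3 was 62.3% above TA in FC and 22.5% above it in EXT.

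Of the 33 genes that were FDR-significant in EXT vs. TA, 16 were also common to both shocked groups. Among these 16, Plekha3, Mrps18c, H2afv, Med28 and Sp3os were higher and Gpatch2l, Armc6, Fbxo38 and Hsph1 lower. All 33 genes met the EXT part of the rule for common genes from the start, and its FC part subtracts the same TA mice. The count is thus in part set by the rule, and it was not tested. For comparison, 495 of the 1797 genes past the unadjusted threshold in EXT were common, as were 6.03% of all genes.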
